A study of Mus musculus with 31 samples.

Results

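The 10 genes described here are natural killer (NK) cell receptors and effectors: the receptors Ncr1, Klrb1c, Klrk1 and Klrd1, the transcription factors Eomes and Tbx21, the cytokine gene Ifng, and Nkg7, Fasl and Xcl1, which act in killing and in chemotaxis. They were matched by symbol, and each matched 1 of the 39017 genes of the deposited count table. Messenger RNA was sequenced in 31 libraries of mouse breast tumours grown orthotopically in syngeneic mice, in 2 models titled 4T1 and MT. The labels do not say whether the libraries of a group come from separate mice. Each model had 4 arms. Mice of the combination arm received both poly I:C and phenformin, those of the poly I:C arm received it with PBS, those of the phenformin arm received it with saline, and the controls received saline and PBS. Every group held 4 libraries, except the phenformin arm of 4T1, with 3 (replicates 1, 2 and 4). All mice are labelled wild type, and their age, the doses and the time of sampling are not given in the sources used here. The design pairs MT with FVB mice and 4T1 with BALB/c mice, whereas the strain and cell line tags of each library name the opposite model, so the groups carry their titles here. H2-Ea-ps, an MHC class II gene that some strains do not express, stood at 214 to 970 CPM (read counts per 1000000 counts of a library) in the 15 libraries titled 4T1 and at 5.24 to 53.0 CPM in the 16 titled MT.

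NK cells are innate lymphocytes that kill stressed, infected or transformed cells without prior priming, guided by the balance between activating receptors such as NKG2D (encoded by Klrk1) and NKp46 (Ncr1) and inhibitory receptors such as the CD94 heterodimer (Klrd1). T-bet (Tbx21) and Eomes direct their maturation, and interleukin 12, interleukin 15 and interleukin 18 from myeloid cells raise their output of interferon-gamma (Ifng), which in turn induces chemokines and antigen presentation in the cells around them. Poly I:C, a synthetic double-stranded RNA sensed by Toll-like receptor 3 and MDA5, is a classical activator of NK cells in mice, and phenformin is a biguanide that inhibits mitochondrial complex I. CD8 T cells, and some other T cells and innate lymphocytes, also transcribe most of these genes, while Ncr1 is the most restricted to NK cells and related innate lymphocytes.

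Positions are those of the mouse genome build GRCm38. Klrb1c, which encodes NK1.1 (ENSMUSG00000030325, chr6:128778485-128789215, minus strand), Klrd1 (ENSMUSG00000030165, chr6:129591782-129598775, plus strand) and Klrk1 (ENSMUSG00000030149, chr6:129610323-129623864, minus strand) fall within 0.845 Mb, in the region known as the NK gene complex. Ncr1 (ENSMUSG00000062524, chr7:4337724-4345164, plus strand) and Nkg7 (ENSMUSG00000004612, chr7:43437073-43438249, plus strand) lie far apart on another chromosome. Fasl (ENSMUSG00000000817, chr1:161780689-161788495, minus strand) and Xcl1 (ENSMUSG00000026573, chr1:164931644-164935527, minus strand) share a chromosome. Eomes (ENSMUSG00000032446, chr9:118478212-118486132, plus strand), Tbx21 (ENSMUSG00000001444, chr11:97098071-97115331, minus strand) and Ifng (ENSMUSG00000055170, chr10:118441046-118445892, plus strand) lie on chromosomes of their own. Klrb1c, Eomes, Ifng and Xcl1 each overlap 1 other annotated gene, and the strand setting of the counting is not given, so some of their reads could belong to the neighbour. Klrb1c is also a close paralog of Klrb1b, and how the counting shared reads between such copies is not given.

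Promoters are shown for the 3 genes whose rise under poly I:C in MT tumours held in every fit with 1 library left out (Ifng, Klrk1 and Fasl) and for 2 genes that did not rise (Ncr1 and Xcl1). RefSeq sequences (GRCm38.p6) of the 250 bases before the transcription start were found for 9 of the 10 genes, all but Klrd1. They were searched for the T-box half-site GTGTGA, on either strand, and for the STAT site TTCNNNGAA, which reads the same on both strands. Capitals mark the matches.
Ifng (chr10:118440796-118441045, plus strand): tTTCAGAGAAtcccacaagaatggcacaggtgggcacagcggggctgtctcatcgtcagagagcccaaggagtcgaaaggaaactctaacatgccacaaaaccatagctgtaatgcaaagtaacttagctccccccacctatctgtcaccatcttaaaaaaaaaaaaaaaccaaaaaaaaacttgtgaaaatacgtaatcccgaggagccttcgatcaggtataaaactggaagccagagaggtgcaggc
Klrk1 (chr6:129623865-129624114, minus strand): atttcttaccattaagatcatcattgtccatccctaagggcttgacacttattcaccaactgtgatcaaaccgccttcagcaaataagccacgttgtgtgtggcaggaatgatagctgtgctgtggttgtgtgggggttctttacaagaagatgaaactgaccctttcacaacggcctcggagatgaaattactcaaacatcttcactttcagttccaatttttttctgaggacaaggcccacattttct
Fasl (chr1:161788496-161788745, minus strand): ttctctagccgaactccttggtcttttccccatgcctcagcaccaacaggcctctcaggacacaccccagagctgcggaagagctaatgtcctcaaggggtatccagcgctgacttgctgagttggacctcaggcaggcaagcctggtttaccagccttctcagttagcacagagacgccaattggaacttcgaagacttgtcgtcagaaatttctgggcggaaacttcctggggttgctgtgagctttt
Ncr1 (chr7:4337474-4337723, plus strand): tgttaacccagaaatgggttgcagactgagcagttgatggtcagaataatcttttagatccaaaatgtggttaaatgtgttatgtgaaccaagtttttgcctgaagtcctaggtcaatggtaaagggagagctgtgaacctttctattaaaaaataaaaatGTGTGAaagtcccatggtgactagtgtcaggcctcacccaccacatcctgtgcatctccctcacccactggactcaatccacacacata
Xcl1 (chr1:164935523-164935772, minus strand): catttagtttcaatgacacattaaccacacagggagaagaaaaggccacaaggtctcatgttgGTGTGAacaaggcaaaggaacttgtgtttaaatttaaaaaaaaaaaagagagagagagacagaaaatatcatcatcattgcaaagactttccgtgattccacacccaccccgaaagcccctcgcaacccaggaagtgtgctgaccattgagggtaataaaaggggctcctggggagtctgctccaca
The T-box half-site lay in the windows of Ncr1 (89 bases before the start shown), Nkg7 (12) and Xcl1 (187), 3 of 9 genes, and in 12.3% of 32817 mouse promoter windows of the same length. The STAT site lay in those of Ifng (249 bases before the start) and Nkg7 (220), 2 of 9 genes, against 7.01% of all windows. Klrk1, Fasl, Klrb1c, Eomes and Tbx21 had neither in this window. Ncr1 has a further annotated start nearby, whose window holds the same half-site.

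Total counts ran from 12160110 to 19849915 per library, and all 10 genes passed the filter on low counts in every fit. The lowest single count was 1 read, for Xcl1. Some libraries stood apart in tissue content. In MT, phenformin replicates 1 to 3 and control replicates 1 to 3 held Sox10, a transcription factor of neural crest and some mammary cells, at 34.4 to 211 CPM, while the other 10 MT libraries held less than the 10 CPM at which they were divided. The basal keratin gene Krt5 ran from 344 to 2535 CPM in the 8 MT libraries given poly I:C, alone or in the combination. Among the MT controls it was at 20.7 to 29.0 CPM in replicates 1 to 3, and only replicate 4 reached 2223 CPM. In 4T1, 3 libraries held the immunoglobulin gene Igkc above 100 CPM and 5 held the muscle actin gene Acta1 above 10 CPM. In bulk tumour RNA, more cells of a type and more RNA of a gene per cell cannot be told apart.

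**Figure D1:**
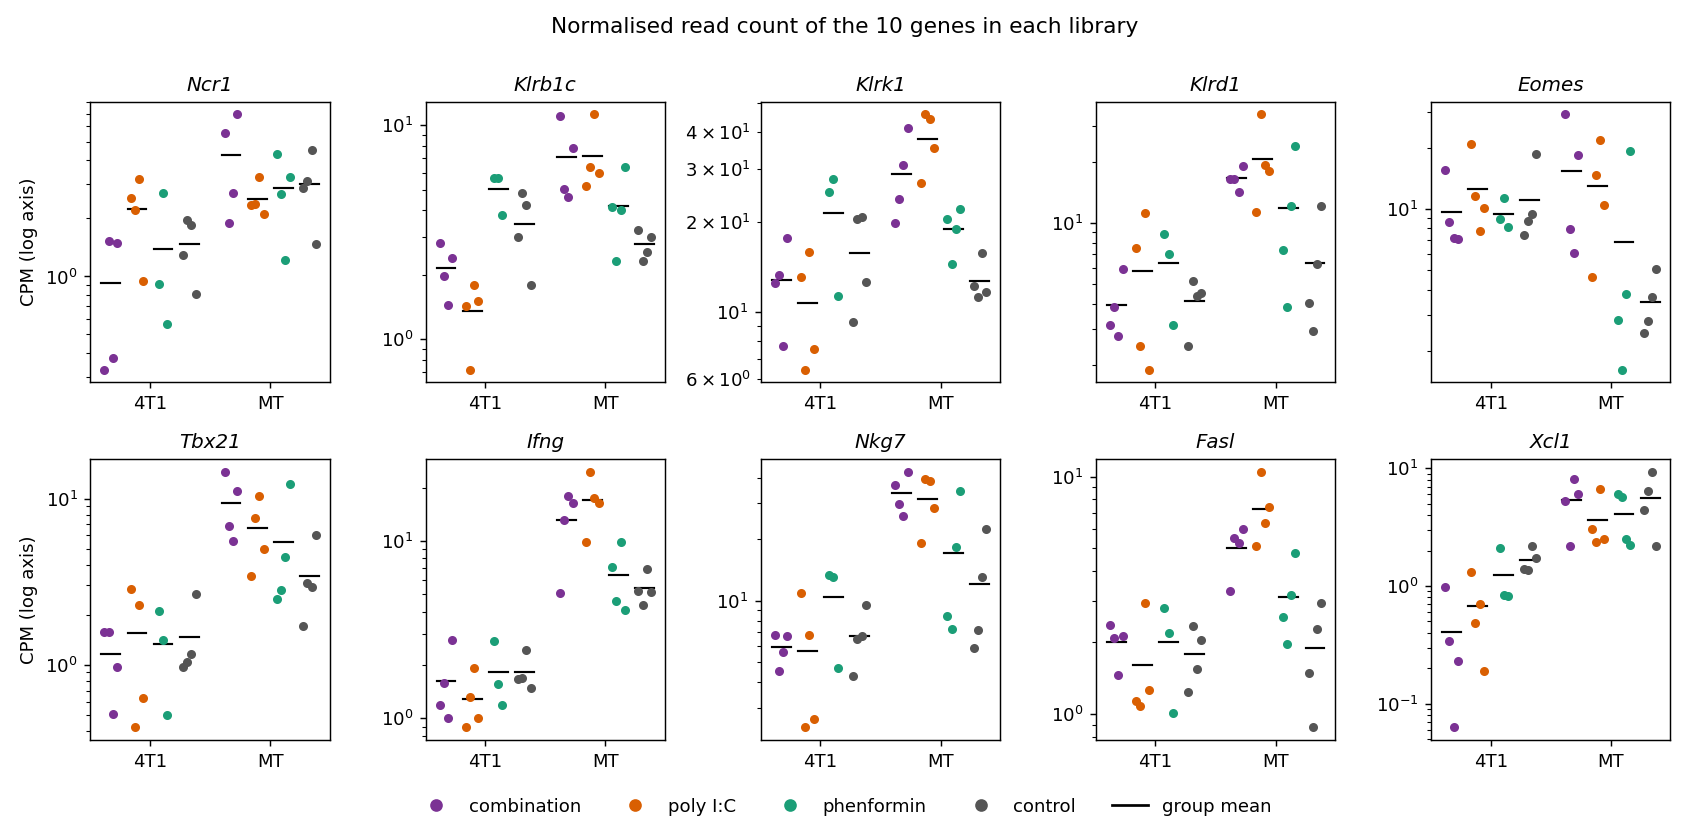
Normalised read count (CPM, log axis) of each of the 10 genes in each library, by model and arm; each point is 1 library and each bar the mean of its group. Klrk1, Ifng and Fasl in all 4 MT libraries given poly I:C alone lie above all 4 MT controls. Ncr1 does not differ in this way, and Ifng is at 0.891 to 2.75 CPM in every 4T1 library.

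In control libraries, Nkg7, a membrane protein of cytotoxic granules, had the highest mean level per kilobase of exon in both models, at 7.40 ± 2.36 CPM per kb in 4T1 and 13.3 ± 8.27 in MT (SD, n = 4 each). In MT, the spread of Nkg7 overlapped that of the gene after it, Xcl1, a chemokine for type 1 dendritic cells, at 10.7 ± 5.77 CPM per kb. Klrd1 (4.96 ± 3.19) and Ifng (4.19 ± 0.845) followed, with overlapping spreads. In 4T1, Klrd1 (3.23 ± 0.910 CPM per kb), Xcl1 (3.19 ± 0.724), Eomes (2.66 ± 1.24) and Klrk1 (2.20 ± 0.802) could not be ordered within their spread. The lowest means in 4T1 were those of Tbx21 (0.587 ± 0.326), Fasl (0.926 ± 0.258) and Ncr1 (0.962 ± 0.349). In MT they were those of Eomes (0.840 ± 0.279), Klrb1c (0.938 ± 0.143) and Fasl (0.977 ± 0.463), and Ncr1 stood at 1.95 ± 0.821. The spreads of these 3 lowest genes overlapped within each model. These orders depend on the divisor, the union of all annotated exons, which is 7183 bases for Klrk1 and 914 for Nkg7. Before that division Klrk1 had the highest mean in 4T1 controls, at 15.8 ± 5.76 CPM against 6.76 ± 2.16 for Nkg7. In MT controls the 2 genes stood at 12.8 ± 2.08 and 12.1 ± 7.56 CPM.

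Untreated 4T1 and MT tumours differed in 3 of the 10 genes, where 51.9% of all 18956 genes passed the same test (edgeR, adjusted p under 0.05; 26.7% higher and 25.2% lower in 4T1), so the share of the 10 genes is below the background. Ifng had 1.67, 1.69, 2.44 and 1.49 CPM in 4T1 controls, against 5.21, 4.38, 6.96 and 5.13 CPM in MT controls. All 4T1 controls lay below all MT controls. Its log2 fold change, 4T1 over MT, was -1.57 ± 0.38 (SE, adjusted p = 0.00139). Xcl1 had 1.4, 1.36, 2.18 and 1.74 CPM in 4T1 and 4.41, 6.38, 9.31 and 2.20 CPM in MT (log2 -1.73 ± 0.57 SE, adjusted p = 0.0133). Here the highest 4T1 control lay just below the lowest MT control. Of all genes, 20.3% lay wholly lower and 25.6% wholly higher in 4T1 controls. MT control replicate 4, the 1 MT control with low Sox10, had the lowest Xcl1 of its group. Without the Sox10-high libraries the Xcl1 difference was -0.39 (adjusted p = 0.757) and that of Ifng -1.48 (adjusted p = 0.0517). Eomes was higher in 4T1 without overlap, with 7.42, 8.74, 9.40 and 18.7 CPM in 4T1 and 2.44, 2.79, 3.68 and 5.04 CPM in MT (log2 1.67 ± 0.61 SE, adjusted p = 0.0239). Its call was lost without the Igkc-high 4T1 libraries (1.29, adjusted p = 0.0963) or without the Sox10-high MT libraries (1.13, adjusted p = 0.297). Of the interferon-gamma pathway, 9 of 16 genes were lower and 2 higher in 4T1 (log2 fold changes ± SE are given for the genes of such lists), with the interferon-gamma-induced GTPases Iigp1 at -2.48 ± 0.38 and Gbp2 at -1.68 ± 0.30, and with the kinase gene Jak2 higher, at 2.85 ± 0.16. Of 11 ligands of NK receptors, 6 were higher and 2 lower in 4T1, among them the NKG2D ligand genes Raet1e (3.06 ± 0.40) and Raet1d (2.95 ± 0.46). Macrophage markers were higher in 4T1 controls in 9 of 9 genes, with sums of 2926 to 4418 CPM in 4T1 and 580 to 759 CPM in MT. Strain and tumour line differ together between the models and cannot be told apart.

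Poly I:C alone in MT tumours was followed by higher levels of 5 of the 10 genes, Klrk1, Fasl, Ifng, Klrb1c and Klrd1, where 19.6% of 17857 genes were called and 8.52% were called higher. Wholly above the controls were 4 of the 10 genes and 12.2% of all genes. The median log2 fold change of the 10 genes was 1.49, against 0.01 over all genes. Klrk1, the gene of the activating receptor NKG2D, had 26.9, 45.7, 44.0 and 35.3 CPM in libraries given poly I:C and 12.2, 11.2, 15.8 and 11.7 CPM in controls. Every treated library lay above every control, and the log2 fold change was 1.59 ± 0.24 (SE, adjusted p = 0.00181). Klrb1c, the gene of NK1.1, had 5.21, 6.35, 11.2 and 6.01 CPM with poly I:C and 3.24, 2.31, 2.54 and 3.01 CPM in controls. The groups did not overlap (log2 1.39 ± 0.36 SE, adjusted p = 0.0166). Leaving out poly I:C replicate 3 or control replicate 2 ended the call, with adjusted p = 0.0565 and 0.0584. Klrd1, which encodes CD94, the partner of the NKG2 chains, had 11.4, 34.4, 19.3 and 18.0 CPM with poly I:C and 4.04, 2.95, 6.29 and 12.1 CPM in controls. Here 1 treated library lay below the highest control, and the call (log2 1.74 ± 0.53 SE, adjusted p = 0.0355) held in 2 of 8 fits with 1 library left out, with adjusted p up to 0.118. Ncr1, the most NK-restricted of the receptors, did not pass: it had 2.35, 2.37, 3.26 and 2.10 CPM with poly I:C and 2.87, 3.11, 4.55 and 1.47 CPM in controls (log2 -0.24 ± 0.45 SE, adjusted p = 0.725).

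Of the effector genes, Ifng and Fasl rose in the same comparison. Ifng had 9.91, 24.5, 17.5 and 16.3 CPM in MT libraries given poly I:C and 5.21, 4.38, 6.96 and 5.13 CPM in controls, without overlap (log2 1.67 ± 0.39 SE, adjusted p = 0.0113). Fasl, the death ligand that engages Fas, had 5.08, 10.4, 6.35 and 7.43 CPM with poly I:C and 1.49, 0.877, 2.28 and 2.93 CPM in controls, also without overlap (log2 1.97 ± 0.38 SE, adjusted p = 0.00462). Klrk1, Ifng and Fasl stayed called in each of the 8 fits that left out 1 library. Nkg7 had 19.2, 39.2, 38.5 and 28.3 CPM with poly I:C and 5.85, 7.17, 13.1 and 22.5 CPM in controls, and missed the threshold (log2 1.39 ± 0.50 SE, adjusted p = 0.0631). Its control replicate 4 lay above the lowest treated library. Eomes had 4.64, 14.7, 21.7 and 10.4 CPM with poly I:C and 2.44, 2.79, 3.68 and 5.04 CPM in controls (log2 1.91 ± 0.74 SE, adjusted p = 0.0824). Tbx21 had 3.43, 7.62, 10.4 and 4.99 CPM with poly I:C and 1.70, 3.11, 2.95 and 6.02 CPM in controls (log2 0.97 ± 0.55 SE, adjusted p = 0.217). Both transcription factors overlapped between the groups. Xcl1 had 3.05, 2.37, 6.70 and 2.50 CPM with poly I:C and 4.41, 6.38, 9.31 and 2.20 CPM in controls (log2 -0.59 ± 0.51 SE, adjusted p = 0.422), with its ranges overlapping. DESeq2 called 7 of the 10 genes in this comparison, Eomes (adjusted p = 0.0289) and Nkg7 (adjusted p = 0.0228) besides the 5 called by edgeR.

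**Figure D2:**
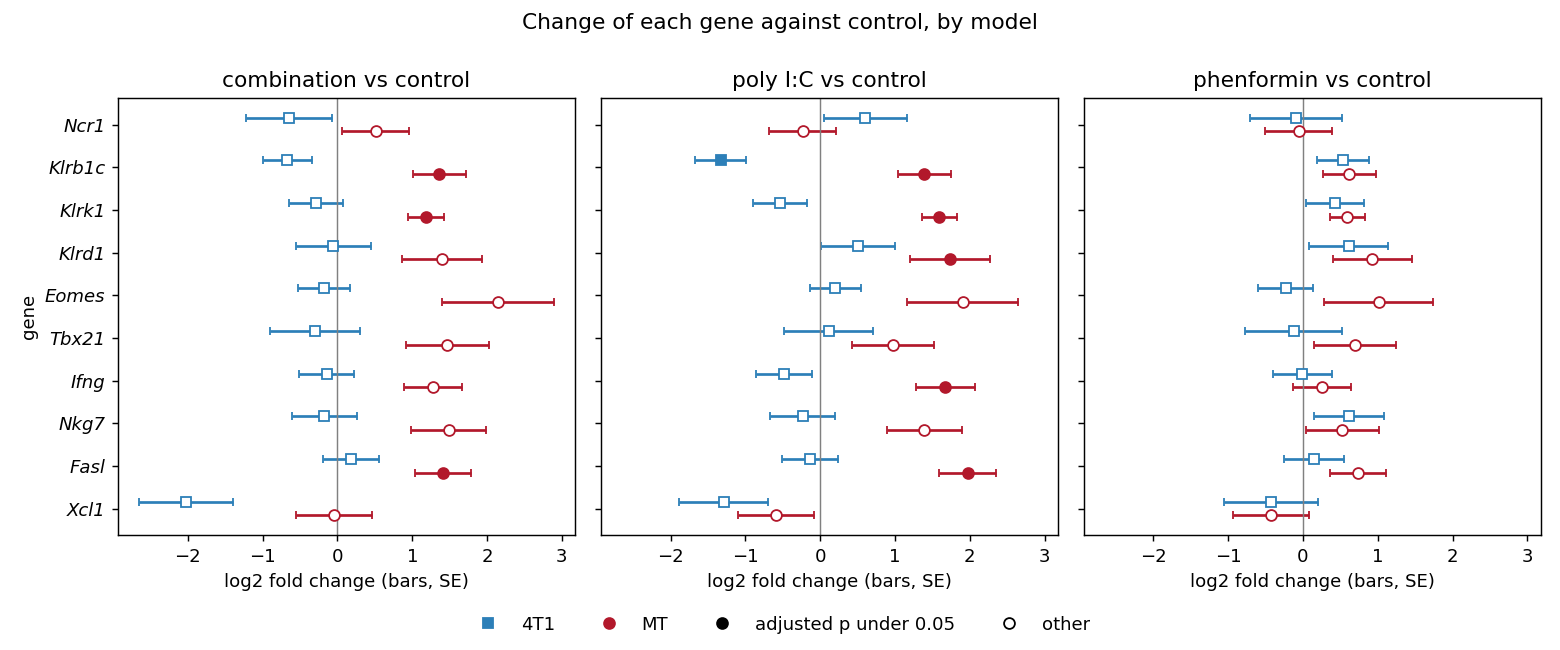
Log2 fold change against control (horizontal axis, bars are SE) of each gene for the combination, poly I:C and phenformin, with 4T1 as squares and MT as circles; filled symbols have an adjusted p under 0.05. In MT, poly I:C called 5 genes and the combination 3, all higher; in 4T1, poly I:C called Klrb1c alone, lower at -1.33.

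The same comparison was run without the Sox10-high libraries. That leaves 4 poly I:C libraries and 1 control, replicate 4, which is assumed to vary like the other groups. The log2 fold changes were 1.73 for Klrk1, 1.76 for Ifng, 1.35 for Fasl, 1.28 for Klrb1c and 0.81 for Klrd1. The adjusted p ran from 0.197 to 0.564, and that fit called 0 genes in all. In that control Klrk1 was at 11.7 CPM, Ifng at 5.13 and Fasl at 2.93, each below all 4 libraries given poly I:C alone. So was Klrb1c, while Klrd1, at 12.1 CPM there, lay above the lowest poly I:C library, at 11.4 CPM. Without the 7 MT libraries with Igkc above 100 CPM, a setting chosen after the data were seen, the same 5 genes were called, with Klrk1 at 1.48 (adjusted p = 0.00915) and Ifng at 1.65 (adjusted p = 0.0255). Eomes and Nkg7 were called as well (1.72 and 1.76). That setting drops control replicate 4, so every control left is Sox10-high and every poly I:C library left is Sox10-low. It therefore cannot separate poly I:C from this difference in tissue content. Phenformin replicate 4 was the other low-Sox10 MT library without poly I:C, at 2.82 CPM of Sox10. Its Klrk1 (22.1 CPM) and Ifng (4.07) lay below all 4 libraries given poly I:C alone. Its Eomes (19.3 CPM) lay within their range and its Tbx21 (12.2 CPM) above it. The highest phenformin levels of Klrb1c (6.35 CPM) and Klrd1 (23.9) lay within the poly I:C range, and that of Fasl (4.75) below it.

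**Figure D3:**
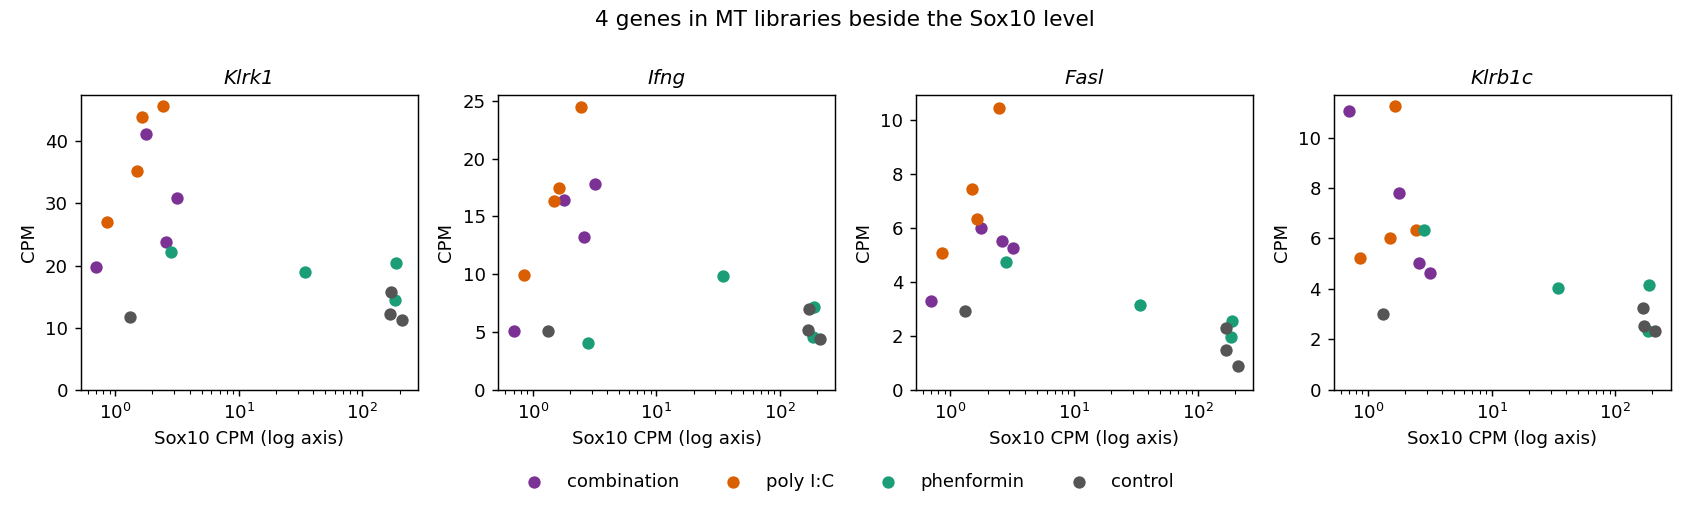
CPM of Klrk1, Ifng, Fasl and Klrb1c (vertical axes) against Sox10 CPM (log axis) in the 16 MT libraries, coloured by arm. Control replicate 4 is the only control on the low-Sox10 side. Its 11.7 CPM of Klrk1, 5.13 CPM of Ifng and 2.93 CPM of Fasl lie below all 4 libraries given poly I:C alone. Ifng in combination replicate 1, at 5.06 CPM, lies below that control. Klrd1, which was also called for poly I:C, is not shown.

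Of 23 other NK receptors and adaptors tested in the MT poly I:C comparison, 9 rose and 0 fell (median 1.36 against 0.01 over all genes). Of all genes, 8.52% were called higher. All controls but replicate 4 were Sox10-high and no poly I:C library was, and the part of that difference in the lists of this paragraph was not tested. Cd244, the receptor 2B4, rose by 1.22 ± 0.20, and Klri2, a lectin-like receptor, by 2.10 ± 0.39. Fcgr3, the low-affinity Fc receptor through which NK cells bind antibody-coated cells and which macrophages also express, rose by 1.67 ± 0.28. Klrc1, the NKG2A partner of Klrd1, rose by 1.83 ± 0.42 (SE, adjusted p = 0.0108). Of 13 genes of the NK-activating cytokine pathway, 5 rose and 1 fell. The 1 that fell was Il12a, which encodes the other chain of interleukin 12 beside Il12b (log2 -6.24 ± 1.38 SE, adjusted p = 0.00845). The genes of this list with the smallest p were Il18rap, a subunit of the interleukin 18 receptor (1.87 ± 0.37), Il15ra, which presents interleukin 15 (0.86 ± 0.18), and Il12rb2, a subunit of the interleukin 12 receptor (1.72 ± 0.37). Il12b, the p40 chain of interleukin 12, averaged 3.30 ± 1.87 CPM with poly I:C and 0.877 ± 0.0936 CPM in controls (SD, n = 4 each) and rose by 1.93 ± 0.50 (SE, adjusted p = 0.0174). Il15 did not pass (log2 0.33 ± 0.21 SE, adjusted p = 0.281). Downstream of Ifng, 7 of 16 receptor, signalling and target genes rose and 0 fell, with Jak2 at 0.91 ± 0.15, the class II transactivator Ciita at 1.06 ± 0.22 and the chemokine gene Cxcl9 at 1.81 ± 0.42. Of 9 granzyme and perforin genes, 3 rose and 0 fell. The pore-forming perforin gene Prf1 averaged 37.6 ± 4.72 CPM with poly I:C and 8.69 ± 5.28 CPM in controls (log2 2.13 ± 0.38 SE, adjusted p = 0.00346). The protease gene Gzmb averaged 74.1 ± 18.0 CPM with poly I:C and 33.9 ± 16.2 CPM in controls (log2 1.15 ± 0.36 SE, adjusted p = 0.0403). Among 7 genes of the Fas pathway, Cflar, an inhibitor of caspase 8, rose (0.60 ± 0.13), and of 8 genes of type 1 dendritic cells, which carry the Xcl1 receptor, Clec9a rose (1.30 ± 0.37). Of 10 ligands of NK receptors tested, 0 passed (edgeR; 3 had an unadjusted p under 0.05 and DESeq2 called 1). Macrophage markers rose in 9 of 9 genes, and their summed level was 1965 to 2518 CPM with poly I:C and 580 to 759 CPM in controls. Neutrophil markers rose in 6 of 8 genes tested (Mmp8 3.39 ± 0.54, S100a9 3.44 ± 0.57), while their summed level overlapped, at 127 to 384 CPM with poly I:C and 22.1 to 2468 CPM in controls. S100a8, 1 of the 8, had a negative value that did not pass (log2 -3.47 ± 1.29 SE, adjusted p = 0.0719). The part of macrophages and neutrophils in the values of these lists and of the 10 genes was not tested.

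T cells share these genes, and their markers varied widely between libraries. The summed level of 18 T cell genes was 316, 579, 1260 and 495 CPM in MT libraries given poly I:C and 109, 123, 174 and 869 CPM in MT controls. None of the 18 genes was at 0 in any library, and 0 of 18 passed the test (edgeR; 1 had an unadjusted p under 0.05 and DESeq2 called 0). Cd8a, the coreceptor gene of cytotoxic T cells, came nearest (log2 1.39 ± 0.65 SE, adjusted p = 0.14), with Cd3e at 1.12 ± 0.94 and Cd4 at 1.48 ± 1.30. The 5 MT libraries with the most T cell RNA were combination replicates 1 and 4 (1959 and 1144 CPM), poly I:C replicate 3 (1260), phenformin replicate 4 (1757) and control replicate 4 (869). Of these, the first 4 also held the 4 highest levels of Tbx21, at 14.4, 11.1, 10.4 and 12.2 CPM. Ifng did not rank with T cell RNA in these 5 libraries. It was at 5.06 CPM in combination replicate 1, at 5.13 CPM in control replicate 4 and, the lowest of all 16 MT libraries, at 4.07 CPM in phenformin replicate 4, but poly I:C replicate 3 held 17.5 CPM and combination replicate 4 held 16.4 CPM. Nkg7 was highest among the controls in replicate 4, at 22.5 CPM. The part of T cells in the changes was not tested.

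**Figure D4:**
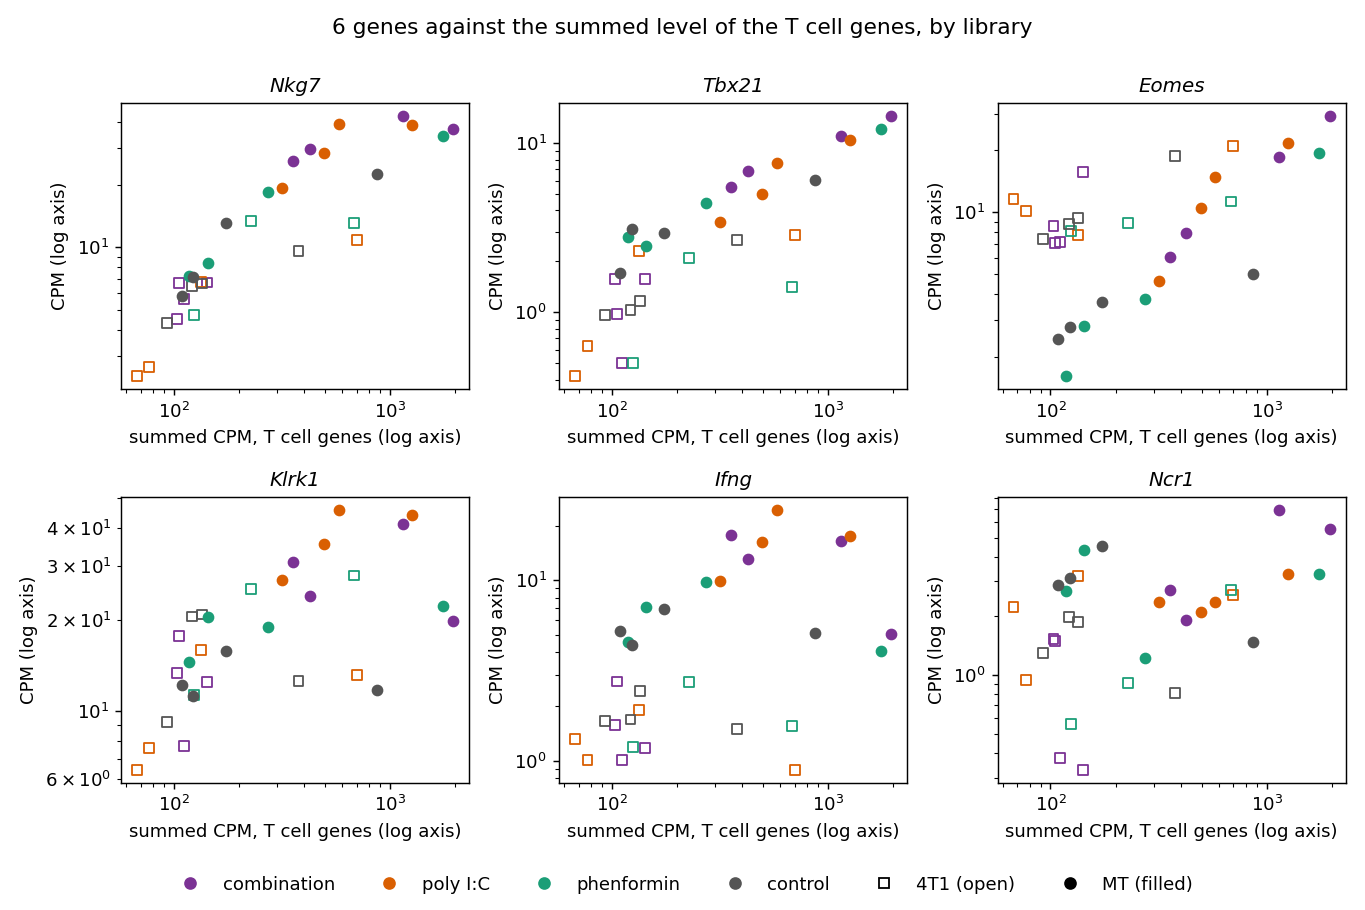
CPM of Nkg7, Tbx21, Eomes, Klrk1, Ifng and Ncr1 (vertical, log axes) against the summed CPM of 18 T cell genes (horizontal, log axes), 1 point per library, with MT filled and 4T1 open. Nkg7 and Tbx21 are highest where T cell RNA is high, while in Ifng the MT libraries at 869, 1757 and 1959 CPM of T cell genes are among the lower ones, at 5.13, 4.07 and 5.06 CPM, and those at 1144 and 1260 CPM are at 16.4 and 17.5 CPM.

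The combination in MT tumours was followed by higher Klrb1c, Klrk1 and Fasl, 3 of 10 genes, where 6.14% of 17857 genes were called and 2.81% were called higher. This comparison uses the same 4 controls as that of poly I:C alone. Klrk1 had 19.8, 23.8, 30.9 and 41.1 CPM in the combination libraries, against 12.2, 11.2, 15.8 and 11.7 CPM in controls, without overlap (log2 1.19 ± 0.24 SE, adjusted p = 0.0237). Klrb1c had 11, 5.03, 4.62 and 7.81 CPM, against 3.24, 2.31, 2.54 and 3.01 CPM in controls (log2 1.36 ± 0.36 SE, adjusted p = 0.0432). Fasl had 3.29, 5.52, 5.25 and 6.0 CPM, against 1.49, 0.877, 2.28 and 2.93 CPM in controls (log2 1.41 ± 0.38 SE, adjusted p = 0.0452). In all 3 genes every combination library exceeded every control. When single libraries were left out in turn, 8 refits each, Klrk1 stayed called in 4, Fasl in 2 and Klrb1c in 1. All 3 calls were lost without the Sox10-high libraries, with Klrk1 at 1.32 (adjusted p = 0.724), Klrb1c at 1.26 (0.854) and Fasl at 0.79 (0.92). Without the Igkc-high MT libraries, 1 combination library remains and is assumed to vary like the other groups. There Klrk1 was at 1.24 (adjusted p = 0.0807), Klrb1c at 0.77 (0.235) and Fasl at 1.75 (0.0907).

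Klrd1, Eomes and Nkg7 also did not overlap between the combination and control libraries of MT, which makes 6 of 10 genes, where 5.89% of all genes lay wholly above the controls, but they did not pass the test. Klrd1 had 16.6, 16.4, 14.3 and 19.2 CPM in the combination and 4.04, 2.95, 6.29 and 12.1 CPM in controls (log2 1.4 ± 0.53 SE, adjusted p = 0.106). Nkg7 had 37.0, 29.7, 25.9 and 42.7 CPM in the combination and 5.85, 7.17, 13.1 and 22.5 CPM in controls (log2 1.49 ± 0.50 SE, adjusted p = 0.0802). Eomes had 29.1, 7.97, 6.06 and 18.4 CPM in the combination and 2.44, 2.79, 3.68 and 5.04 CPM in controls (log2 2.15 ± 0.75 SE, adjusted p = 0.0875). Replicates 1 and 4, which held the most T cell RNA, had the highest Eomes. Tbx21, with 14.4, 6.80, 5.54 and 11.1 CPM in the combination, overlapped with the controls through replicate 3 (log2 1.47 ± 0.55 SE, adjusted p = 0.104). Ifng, with 5.06, 13.2, 17.8 and 16.4 CPM in the combination, overlapped through replicate 1 (log2 1.28 ± 0.39 SE, adjusted p = 0.061). Ncr1 (5.55, 1.90, 2.71 and 6.93 CPM, log2 0.51 ± 0.45 SE, adjusted p = 0.441) and Xcl1 (5.30, 2.21, 8.08 and 6.0 CPM, log2 -0.04 ± 0.51 SE, adjusted p = 0.961) did not pass either. DESeq2 called 8 of the 10 genes in this comparison, all but Ncr1 and Xcl1.

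Of the surrounding genes in the MT combination, 6 of 23 other NK receptors rose and 0 fell, where 2.81% of all genes were called higher. Cd244 was at 0.98 ± 0.19 and Tigit, an inhibitory receptor, at 2.08 ± 0.51. All controls but replicate 4 were Sox10-high and no combination library was, and the part of that difference in these lists was not tested. Of 13 cytokine pathway genes, Il18rap (1.70 ± 0.37) and Il12b (1.94 ± 0.50) rose. In the interferon-gamma pathway, 4 of 16 rose, among them Jak2 (0.76 ± 0.15) and Socs1, a feedback inhibitor (0.85 ± 0.21). Prf1 averaged 23.2 ± 6.71 CPM in the combination and 8.69 ± 5.28 CPM in controls (log2 1.43 ± 0.38 SE, adjusted p = 0.044), the 1 of 9 killing genes that passed. T cell sums were 1959, 424, 356 and 1144 CPM in the combination and 109, 123, 174 and 869 CPM in controls, with 0 of 18 genes called (edgeR; 1 at an unadjusted p under 0.05, 0 by DESeq2). Macrophage markers rose in 7 of 9 genes (Csf1r 1.32 ± 0.21, C1qa 1.12 ± 0.23), and their summed level was 1419 to 2641 CPM in the combination and 580 to 759 CPM in controls. Neutrophil markers rose in 7 of 8 genes tested (Mmp8 3.95 ± 0.55, S100a9 4.21 ± 0.59), while their summed level overlapped, at 178 to 733 CPM in the combination and 22.1 to 2468 CPM in controls. S100a8, 1 of the 8, had a negative value that did not pass (log2 -2.66 ± 1.25 SE, adjusted p = 0.169). The part of these cells in the values of the 10 genes and of the NK receptor list was not tested.

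The combination did not differ past the threshold from poly I:C alone in any of the 10 genes in MT (edgeR, 0 called, 0 at an unadjusted p under 0.05, 0 called by DESeq2), where 0% of 17857 genes were called. Ifng averaged 13.1 ± 5.72 CPM in the combination and 17.1 ± 5.97 CPM with poly I:C alone (log2 -0.39 ± 0.38 SE, adjusted p = 0.895). Fasl averaged 5.01 ± 1.19 CPM in the combination and 7.33 ± 2.29 CPM with poly I:C alone (log2 -0.56 ± 0.36 SE, adjusted p = 0.845; SD, n = 4 each). The combination against phenformin alone gave 0 called members, where 0.106% of genes passed, with 2 members at an unadjusted p under 0.05 and 0 called by DESeq2. All 10 log2 fold changes were positive there, with Ifng at 1.02 ± 0.39 (SE, adjusted p = 0.31) and Klrk1 at 0.59 ± 0.23 (SE, adjusted p = 0.32). For the interaction, the combination minus both single agents plus control, 0 of 10 genes passed (0% of all genes; 2 members at an unadjusted p under 0.05; 0 by DESeq2). Those 2 were Klrk1 (log2 -1.0 ± 0.33 SE, adjusted p = 0.385) and Fasl (log2 -1.30 ± 0.52 SE, adjusted p = 0.433), both negative.

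Phenformin alone called none of the 10 genes in either model (edgeR, 0% of 17445 genes in 4T1 and 0% of 17857 in MT; 0 by DESeq2 in each). In MT, 1 member had an unadjusted p under 0.05, Klrk1, with 20.4, 14.5, 18.9 and 22.1 CPM with phenformin and 12.2, 11.2, 15.8 and 11.7 CPM in controls (log2 0.59 ± 0.24 SE, adjusted p = 0.811), and these ranges overlapped. Ifng had 7.14, 4.56, 9.83 and 4.07 CPM with phenformin and 5.21, 4.38, 6.96 and 5.13 CPM in controls (log2 0.26 ± 0.39 SE, adjusted p = 0.92). Replicate 4 stood apart in the T-box factors, with Eomes at 19.3 CPM and Tbx21 at 12.2 CPM, while the other 3 phenformin libraries held 1.61 to 3.80 and 2.47 to 4.45 CPM. In 4T1, where 0 members had an unadjusted p under 0.05, Klrb1c had 5.66, 5.68 and 3.83 CPM with phenformin and 3.01, 4.80, 4.25 and 1.80 CPM in controls (log2 0.53 ± 0.35 SE, adjusted p = 0.66). Klrk1 had 25.2, 27.9 and 11.3 CPM with phenformin and 9.25, 20.5, 20.8 and 12.6 CPM in controls (log2 0.43 ± 0.39 SE, adjusted p = 0.759). The groups overlapped in both genes. For the difference of the phenformin response between the models, 0 of 10 genes passed (edgeR, 0% of 18956 genes; 0 members at an unadjusted p under 0.05; 0 by DESeq2).

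In 4T1 libraries given poly I:C alone, 1 of 10 genes passed the test, Klrb1c, which fell, where 6.32% of 17445 genes were called and 3.06% were called lower. Klrb1c had 1.43, 0.721, 1.79 and 1.51 CPM with poly I:C and 3.01, 4.80, 4.25 and 1.80 CPM in controls. The highest treated library lay just below the lowest control, and the log2 fold change was -1.33 ± 0.34 (SE, adjusted p = 0.036). Of 8 refits that each dropped 1 library, 4 kept the call. It was lost on dropping poly I:C replicate 1 (adjusted p = 0.0641) or 2 (0.0983), or control replicate 2 (0.0931) or 3 (0.0928). It was also lost without the Igkc-high 4T1 libraries (-1.56, adjusted p = 0.0534) or the Acta1-high ones (-1.22, adjusted p = 0.215). Ifng, with 0.891, 1.32, 1.92 and 1.01 CPM with poly I:C and 1.67, 1.69, 2.44 and 1.49 CPM in controls, did not pass (log2 -0.48 ± 0.37 SE, adjusted p = 0.456). Klrk1 had 13.1, 6.43, 15.8 and 7.57 CPM with poly I:C and 9.25, 20.5, 20.8 and 12.6 CPM in controls (log2 -0.54 ± 0.37 SE, adjusted p = 0.395). Xcl1 had 1.31, 0.481, 0.703 and 0.189 CPM with poly I:C, each below the 1.4, 1.36, 2.18 and 1.74 CPM of the controls (log2 -1.29 ± 0.60 SE, adjusted p = 0.204). Klrb1c and Xcl1 make 2 of 10 genes wholly below the controls, where 7.82% of all genes were. Klrd1 varied within the poly I:C group, with 7.55 and 11.2 CPM in replicates 1 and 3 and 2.46 and 1.89 CPM in replicates 2 and 4, and so did Tbx21 and Nkg7 by the same division. T cell sums were 700, 67.5, 134 and 76.9 CPM in replicates 1 to 4, against 92.6, 122, 134 and 377 CPM in controls. Fasl (1.13, 1.08, 2.94 and 1.26 CPM), Ncr1 (2.56, 2.22, 3.19 and 0.946 CPM) and Eomes (20.8, 11.5, 7.73 and 10.1 CPM) overlapped with the controls.

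Of the surrounding genes in this 4T1 comparison, 1 of 21 other NK receptors passed, where 6.32% of all genes did. A single call in a list of about this size lies near that share. The gene was Klrb1b, a lectin-like receptor of the same family as Klrb1c, which fell (log2 -1.42 ± 0.32 SE, adjusted p = 0.0207). Il18rap, 1 of 11 cytokine pathway genes, rose (1.02 ± 0.22), as did Nos2, the inducible nitric oxide synthase, 1 of 16 interferon-gamma pathway genes (3.03 ± 0.58), Pvr, the ligand of DNAM-1, 1 of 10 ligands (0.78 ± 0.16), and Gzme, 1 of 9 killing genes (1.76 ± 0.27). In the Fas pathway Cflar rose (0.32 ± 0.09) and the adaptor gene Fadd fell (-0.52 ± 0.14). Macrophage markers fell in 5 of 9 genes, and their summed level was 1267 to 1937 CPM with poly I:C and 2926 to 4418 CPM in controls. Klrb1c and Klrb1b moved the same way as these markers, whose part in the result was not tested.

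The 4T1 combination against control called 0 of the 10 genes (edgeR, 0% of 17445 genes; 1 member at an unadjusted p under 0.05; 0 members by DESeq2, which called 399 genes in all). That 1 member was Xcl1, with 0.986, 0.339, 0.0630 and 0.229 CPM in the combination and 1.4, 1.36, 2.18 and 1.74 CPM in controls. All combination libraries lay below all controls, as 4.67% of all genes did, and the log2 fold change was -2.03 ± 0.63 (SE, adjusted p = 0.194). T cell sums were 142, 103, 111 and 105 CPM in the combination and 92.6, 122, 134 and 377 CPM in controls. Skeletal muscle genes summed to 29.0 to 936 CPM in the combination and 17.9 to 21.0 CPM in controls, with 10 of 10 at an unadjusted p under 0.05, 0 called by edgeR and 8 called by DESeq2. The part of T cells and muscle in the Xcl1 value was not tested, and without the Acta1-high libraries Xcl1 was at -2.99 (adjusted p = 0.457). The Xcl1 levels stand on 15, 6, 1 and 4 reads in the combination libraries and on 26, 25, 41 and 28 reads in the controls. The estimate ran from -2.92 to -1.69 on dropping single libraries, and over all alternatives the adjusted p ran from 0.0644 (DESeq2) to 0.457. Xcr1, the receptor of Xcl1 on type 1 dendritic cells, averaged 1.29 ± 0.430 CPM in the combination and 5.16 ± 2.62 CPM in controls and did not pass (log2 -1.98 ± 0.65 SE, adjusted p = 0.222). Of the 8 genes of type 1 dendritic cells, 4 had an unadjusted p under 0.05, 0 were called by edgeR and 1 by DESeq2, with Itgae at -1.81 ± 0.52 and Flt3 at -1.51 ± 0.57. Klrb1c, with 2.83, 1.98, 1.45 and 2.40 CPM in the combination, overlapped with the controls (log2 -0.67 ± 0.33 SE, adjusted p = 0.446). So did Ifng, with 1.18, 1.58, 1.01 and 2.75 CPM (log2 -0.14 ± 0.36 SE, adjusted p = 0.931), and Klrk1, with 12.5, 13.3, 7.69 and 17.6 CPM (log2 -0.29 ± 0.36 SE, adjusted p = 0.827). Prf1 averaged 21.8 ± 11 CPM in the combination and 7.19 ± 1.39 CPM in controls (log2 1.61 ± 0.39 SE, adjusted p = 0.128; SD, n = 4 each). Gzmb averaged 33.7 ± 17.7 CPM in the combination and 14.2 ± 1.87 CPM in controls (log2 1.26 ± 0.38 SE, adjusted p = 0.186). Neither passed.

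The remaining 4T1 contrasts also called 0 of the 10 genes. The combination against poly I:C called 0.246% of all genes, with 1 member, Ncr1, at an unadjusted p under 0.05 and 0 by DESeq2. Ncr1 had 0.329, 1.52, 0.378 and 1.49 CPM in the combination and 2.56, 2.22, 3.19 and 0.946 CPM with poly I:C (log2 -1.25 ± 0.57 SE, adjusted p = 0.25). The combination against phenformin called 0% of all genes, with 2 members at an unadjusted p under 0.05 and 0 by DESeq2. Klrb1c had 2.83, 1.98, 1.45 and 2.40 CPM in the combination and 5.66, 5.68 and 3.83 CPM with phenformin, without overlap (log2 -1.20 ± 0.35 SE, adjusted p = 0.241), where 6.68% of all genes were wholly lower. Xcl1 was the other (log2 -1.60 ± 0.67 SE, adjusted p = 0.365). The interaction called 0 members, 0 at an unadjusted p under 0.05 and 0 by DESeq2, where 0% of all genes passed.

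The response to poly I:C differed between the models in 4 of 10 genes, where 11.1% of 18956 genes passed and 5.42% had a lower response in 4T1. The differences, 4T1 minus MT on the log2 scale, were -2.72 ± 0.50 (SE, adjusted p = 0.00105) for Klrb1c, -2.13 ± 0.45 (SE, adjusted p = 0.00405) for Klrk1, -2.16 ± 0.54 (SE, adjusted p = 0.012) for Ifng and -2.11 ± 0.54 (SE, adjusted p = 0.0131) for Fasl. All 4 stayed called whichever single library was dropped (16 refits). Without the Sox10-high MT libraries they were -2.64, -2.29, -2.27 and -1.52 in that order, and none passed (adjusted p = 0.0562, 0.106, 0.154 and 0.289). Of the 10 genes, Klrb1c was the only 1 called in both models alone, in opposite directions. Outside the 10, Klrb1b did the same (log2 -1.42 ± 0.32 SE in 4T1 and 1.39 ± 0.29 SE in MT). The macrophage markers that fell in 4T1 also rose in MT. Nkg7 (log2 -1.62 ± 0.69 SE, adjusted p = 0.131), Eomes (log2 -1.70 ± 0.84 SE, adjusted p = 0.19), Klrd1 (log2 -1.23 ± 0.75 SE, adjusted p = 0.301), Tbx21 (log2 -0.86 ± 0.84 SE, adjusted p = 0.552), Xcl1 (log2 -0.69 ± 0.81 SE, adjusted p = 0.631) and Ncr1 (log2 0.84 ± 0.75 SE, adjusted p = 0.508) did not pass. Of the surrounding genes, 4 of 24 other NK receptors had a lower response in 4T1, with Klrb1b at -2.82 ± 0.44 and Tyrobp, the signalling adaptor DAP12, at -1.99 ± 0.41. So did 4 of 16 interferon-gamma pathway genes, with Ciita at -1.55 ± 0.41 and Ifngr1 at -1.29 ± 0.35. Of 8 genes of type 1 dendritic cells, 3 did, Xcr1 (-2.92 ± 0.83), Itgae (-2.62 ± 0.75) and Clec9a (-2.23 ± 0.64). All 9 macrophage markers also had a lower response in 4T1 (median -2.58), and their part in the receptor values was not tested.

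The response to the combination differed in 1 of 10 genes, Klrb1c (log2 -2.03 ± 0.49 SE, adjusted p = 0.0229), where 4.56% of all genes passed and 2.29% had a lower response in 4T1. The call held in 13 of 16 refits that dropped 1 library. It was lost without 4T1 control replicate 2 (adjusted p = 0.0512) or 3 (0.0561) or MT control replicate 2 (0.0559), without the Acta1-high 4T1 libraries (-2.37, adjusted p = 0.0831), without the Igkc-high MT libraries (-1.45, adjusted p = 0.1), and without the Sox10-high MT libraries (-1.95, adjusted p = 0.309). Klrk1 came next (log2 -1.48 ± 0.45 SE, adjusted p = 0.0555), then Eomes (log2 -2.35 ± 0.84 SE, adjusted p = 0.0914) and Ifng (log2 -1.43 ± 0.54 SE, adjusted p = 0.104), none of which passed, and all 10 differences were negative. These comparisons share the control libraries with those of poly I:C alone.

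**Figure D5:**
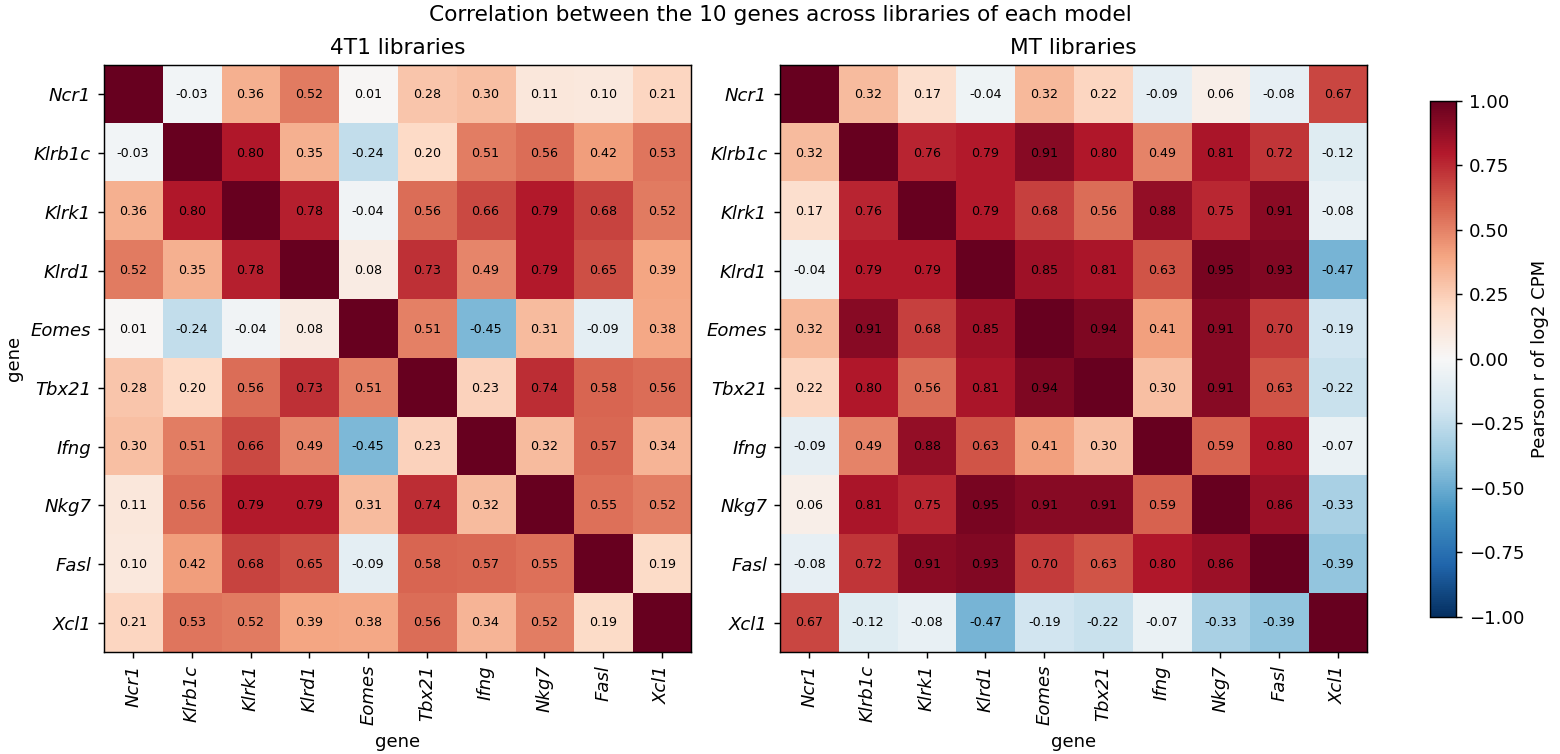
Pearson r of log2 CPM between each pair of the 10 genes, across the 15 libraries of 4T1 (left) and the 16 of MT (right), with the colour scale from -1 to 1. In MT, 8 genes correlate at 0.301 to 0.949 with each other, while the pairs of Ncr1 and Xcl1 have medians of 0.165 and -0.189; in 4T1, Eomes runs against Ifng at -0.446.

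Within each model the genes varied together to different degrees. Across the 16 MT libraries, which include all 4 arms, the 28 pairs without Ncr1 and Xcl1 had a median r of 0.798 (0.301 to 0.949), the highest between Klrd1 and Nkg7. In the 15 libraries of 4T1 the same pairs had a median of 0.532 (-0.446 to 0.797). Eomes gave the lowest value in 4T1. It correlated with Tbx21 at 0.507 there and at 0.935 in MT, and with Ifng at -0.446 in 4T1 and 0.409 in MT. Ncr1 had a median r of 0.214 with the other genes in 4T1 and 0.165 in MT, and Xcl1 one of 0.393 in 4T1 and -0.189 in MT. These values describe the libraries, which share tissue content and arm. With each group's mean taken out, over all 31 libraries, Ifng kept an r of 0.603 with Klrk1, 0.512 with Fasl and 0.363 with Klrd1. Its r was then 0.13 with Nkg7, 0.013 with Klrb1c, 0.00149 with Tbx21 and -0.258 with Eomes, while Klrd1 and Nkg7 stood at 0.888 and Eomes and Tbx21 at 0.729.

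The likest genes outside the 10, by Pearson r of log2 CPM over all 31 libraries, were named for each gene. Ifng was most like Gbp8 (0.977; 0.821 within 4T1 and 0.924 within MT), Cxcl9 (0.97) and Gbp5 (0.96), genes known to be induced by interferon-gamma. The likest genes of Klrk1 were the receptor genes Klrc1 (0.879; 0.776 within 4T1 and 0.898 within MT) and Klri2 (0.875), then Inpp5j (0.868). Those of Klrd1 were the chemokine receptor gene Cxcr6 (0.932), Klrc2 (0.923) and Gli1 (0.922). Fasl was most like Klrc1 (0.956), Cxcr6 (0.953) and Klrc2 (0.948; 0.821 within 4T1 and 0.985 within MT). Nkg7 was most like the T cell coreceptor gene Cd8a (0.956; 0.954 within 4T1 and 0.981 within MT), then Lag3 (0.942) and Sh2d2a (0.939). Tbx21 was most like Crtam (0.94), a receptor of activated lymphocytes, then Trbv3 (0.925) and Scn2b (0.912). Eomes was most like Jak1 (0.911; 0.557 within 4T1 and 0.945 within MT), Zfp882 (0.905) and the chemokine receptor gene Cxcr3 (0.901). Klrb1c was most like myeloid and antigen presentation genes, with Plbd1 (0.891; 0.902 within 4T1 and 0.908 within MT) and the MHC class II genes Cd74 (0.869) and H2-Aa (0.868) as its likest genes. With each group's mean taken out, over the same 31 libraries, r was 0.702 for Plbd1, 0.438 for Cd74 and 0.426 for H2-Aa, against 0.898 for Ifng with Gbp8, 0.968 for Nkg7 with Cd8a and 0.465 for Xcl1 with Diablo. Ncr1 had Mlx (0.808), D6Wsu163e (0.805) and Tubd1 (0.801) as its likest genes. Xcl1 had Diablo (0.876, with 0.727 within 4T1 and 0.531 within MT), Elac2 (0.873) and Slc25a42 (0.866, with 0.732 within 4T1 but 0.19 within MT).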

How the data were processed

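The deposited values are raw whole-number counts of reads per gene, which per the submitters' processing notes came from Trimmomatic 0.32.48, STAR 2.3.0 and featureCounts 1.4.4 on the mouse genome (mm10, GRCm38); the annotation release and strand setting are not given in the sources used here. RNA came from column extraction and libraries were strand-specific, per the labels. Groups follow the titles. Genes were tested with edgeR 4.0.16 in R 4.3.3 (quasi-likelihood F test, filterByExpr with a minimum count of 10 and total of 15, TMM scaling), in 1 fit per model (17445 genes in 4T1, 17857 in MT) and 1 joint fit (18956 genes) for differences between models, with calls at an adjusted p (Benjamini-Hochberg, over all genes of a fit) under 0.05. SE is the log2 fold change divided by the square root of F. CPM use TMM-scaled library sizes of the joint fit, except for Sox10, Krt5, Igkc, Acta1 and H2-Ea-ps, which use library totals. CPM per kb divide by the union of all exons annotated for a gene in GENCODE vM21, which held 37693 of the 39017 identifiers.

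Alternatives were DESeq2 1.42.0, DESeq2 size factors, no filter, a filter of at least 1 CPM in 4 libraries, a block on replicate number, only the groups compared, leaving out each library in turn and leaving out libraries by Igkc, Acta1 or Sox10; the Igkc setting for MT was chosen after seeing the data. The 10 genes and the gene lists were chosen with earlier results of these data known. All 10 genes are described. Of other lists, at most the 3 members with the smallest p in a comparison are named, besides Cd3e, Cd8a, Cd4, Gzmb, Prf1, Klrc1, Klrb1b, Xcr1, Il12a, Il12b, Il15, Il18 and S100a8. For likeness, the 3 genes with the highest r (log2 CPM, prior count 2, informative symbols) were listed. Proteins were not used here. The labels do not say whether replicates are separate animals, so p-values measure the spread between these libraries. The fits were checked on simulated counts drawn with the same fixed spread for all genes and without differences in tissue content. That check therefore cannot show how the fits behave under the tissue differences seen here.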

Additional observations from a re-analysis of the deposited data

Results flagged for a closer look

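Of 70 groups of 4 libraries, 10 genes in 7 groups, 4 held a library far from the others, and chance alone flags about 1 in 20. Eomes in MT phenformin replicate 4 was at 19.3 CPM, and the gap to the next library took 0.876 of the range of the group. The same library had 1757 CPM of summed T cell genes. Tbx21 in 4T1 control replicate 4 was at 2.67 CPM (gap 0.882), in the 4T1 control with the most T cell RNA, at 377 CPM. Fasl in 4T1 poly I:C replicate 3 was at 2.94 CPM (gap 0.904), and Xcl1 in MT poly I:C replicate 3 at 6.70 CPM (gap 0.843).

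The response to poly I:C differed between 4T1 and MT tumours for Klrb1c (-2.72), Klrk1 (-2.13), Ifng (-2.16) and Fasl (-2.11), and the response to the combination for Klrb1c (-2.03), each as 4T1 minus MT on the log2 scale in the joint edgeR fit.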

How the results depend on the processing

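Of 17 calls of single genes, refitted 328 times under these alternatives, 259 refits kept the call, 69 lost it and 0 reversed its direction. In MT given poly I:C, 5 genes were called, 7 with DESeq2, 3 to 6 with 1 library left out (3 without control replicate 2 or poly I:C replicate 3), and 0 without the Sox10-high libraries, which leaves 1 control and calls 0 genes at all. In the MT combination the 3 calls became 8 with DESeq2, 1 with no filter on low counts, 0 with only the groups compared, 0 without the Sox10-high and 0 without the Igkc-high MT libraries (1 combination library left), and 0 to 7 with 1 library left out. The count was 7 without control replicate 4, 1 without combination replicate 2 or control replicate 3, and 0 without combination replicate 3 or 4 or control replicate 1 or 2. For poly I:C in 4T1 the 1 call became 0 with the replicate block, with only the groups compared, without the Igkc-high and without the Acta1-high 4T1 libraries, and 0 to 1 with 1 library left out (0 without control replicate 2 or 3 or poly I:C replicate 1 or 2). For 4T1 against MT controls the 3 calls became 5 with only the groups compared, and 2 to 3 with 1 library left out. The 4 differences in the poly I:C response became 0 without the Sox10-high MT libraries, and 4 to 5 with 1 library left out. The 1 difference in the combination response became 3 with DESeq2, 0 without the Acta1-high 4T1, the Sox10-high MT or the Igkc-high MT libraries, and 0 to 5 with 1 library left out. It was 5 without MT control replicate 4, 2 without 4T1 combination replicate 4, 4T1 control replicate 1 or MT combination replicate 1, and 0 without 4T1 control replicate 2 or 3 or MT control replicate 2. The cause was not tested. The 10 other comparisons kept 0 calls in every fit. The titles do not say that same-numbered libraries pair, so the numbers were not taken as pairs. Same-numbered libraries of different arms had a median correlation of deviations of -0.0597 in 4T1 and 0.102 in MT. For differently numbered ones it was 0.0467 in 4T1 and 0.0018 in MT. In MT, 12 of 24 same-numbered and 30 of 72 differently numbered pairs exceeded 0.1, which does not settle whether they pair. The replicate block also lost Klrb1c in the MT combination (1.34, adjusted p = 0.0558). Xcl1, Tbx21 and Ncr1 in 4T1, with single counts down to 1, 7 and 5 reads, limit what the depth can show.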

Other observations

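Il12b, the p40 chain of interleukin 12, averaged 1.5 ± 1.08 CPM with poly I:C and 1.22 ± 0.704 CPM in 4T1 controls, and Il15 had a log2 fold change of 0.73 ± 0.23 there, which did not pass (edgeR, adjusted p = 0.0701). Klrc1 averaged 6.69 ± 4.49 CPM with poly I:C and 6.05 ± 1.55 CPM in 4T1 controls (SD, n = 4 each), while in MT it averaged 20.4 ± 5.91 CPM in the combination, 27.7 ± 9.48 CPM with poly I:C, 10.8 ± 4.25 CPM with phenformin and 7.95 ± 4.44 CPM in controls.

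Il18 was higher in 4T1 than in MT controls (log2 2.44 ± 0.57 SE, adjusted p = 0.000819), and so was the receptor subunit gene Il18rap (log2 2.90 ± 0.33 SE, adjusted p = 7.63e-08), where Ifng was lower.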
